A study of Mus musculus with 8 samples.

Results

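Nuclear-encoded mRNAs of the mitochondrial respiratory chain were followed in pull-downs from the embryonic mouse cortex by RNA immunoprecipitation sequencing (RIP-seq). In RIP-seq an antibody captures a protein from a lysate, and the RNA bound to the captured material is read out by sequencing. The set holds 10 of the 54838 Ensembl gene IDs in the count files: Ndufs1 of complex I, Sdha and Sdhb of complex II, Uqcrc1 and Uqcrc2 of complex III, Cox4i1, Cox5a and Cox6c of complex IV, Atp5b of complex V, and Cycs, the gene of cytochrome c. They were taken by a list of IDs paired with symbols. Dissociated cortical cells of C57BL/6 mice at embryonic day 12.5 were the source of every library. For 4 libraries the pull-down used a rabbit Exosc10 antibody. For the other 4, the mock control, it used normal rabbit IgG. No genetic change or treatment is named for either group, and input RNA was not analysed here. Each value is therefore a share of one pull-down, set against the other, and no value says how a pull-down compares with the total RNA of the cells. The lysates are bulk samples, in which fewer cells of a type and less RNA per cell cannot be told apart.

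The respiratory chain passes electrons from NADH and succinate to oxygen through protein complexes of the inner mitochondrial membrane. Complexes I, III and IV pump protons, and the ATP synthase, complex V, makes ATP from the proton gradient. Most subunits are encoded in the nucleus, translated in the cytosol and imported, and a few are encoded in mitochondrial DNA. Exosc10 is a 3′ to 5′ exoribonuclease of the nuclear RNA exosome, which trims and degrades RNA. Neural progenitors of the early cortex rely strongly on glycolysis, and respiration becomes more prominent as neurons mature.

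All 10 mRNAs had enough reads to be tested, and 16716 genes were tested in all. Total counts ran from 20967743 to 34506709 per library. Apart from Cycs, each of these mRNAs had at least 807 reads in every library, while Cycs had 48 to 127. The mean of each gene is given in CPM, the count of a gene scaled to a common library total, which was corrected by TMM (a trimmed mean of log ratios between libraries). CPM is not corrected for transcript length, so a rank or decile by CPM reflects how many reads a gene has, not how many transcripts. The count files hold IDs without symbols, and 0 RefSeq entries carried an Ensembl ID. The other respiratory chain genes and the markers of cortical and other cell types could therefore not be read out, and the labelled tissue was not checked against its markers. It is not stated whether libraries represent different litters or dishes. The p-values therefore reflect spread among these libraries, which may be technical.

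Sdha and Atp5b were more abundant, as a share of reads, with the Exosc10 antibody than with IgG, and Cox6c was less abundant. These were the 3 calls among the 10 mRNAs, 2 higher and 1 lower, by edgeR's quasi-likelihood test with Benjamini-Hochberg adjustment over all tested genes at 0.05. Over all tested genes 7.92% were higher and 5.82% were lower, and in the decile of genes with the highest mean CPM, where 4 of the 10 lie, 15.4% were higher and 6.64% lower. With 10 members, counts of 2 and 1 are not read as a difference from those shares. The median log2 fold change of the 10 mRNAs, Exosc10 over IgG, was 0.19, against -0.03 over all tested genes and 0.08 in that decile, and it was -0.08 without Exosc10 library 1. The values of the 4 Exosc10 and 4 IgG libraries did not overlap for 4 of the 10 mRNAs, higher for Sdha and Atp5b and lower for Cox6c and Cycs. Over all tested genes 10.6% were separated with Exosc10 above IgG and 8.45% with Exosc10 below IgG.

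**Figure D1:**
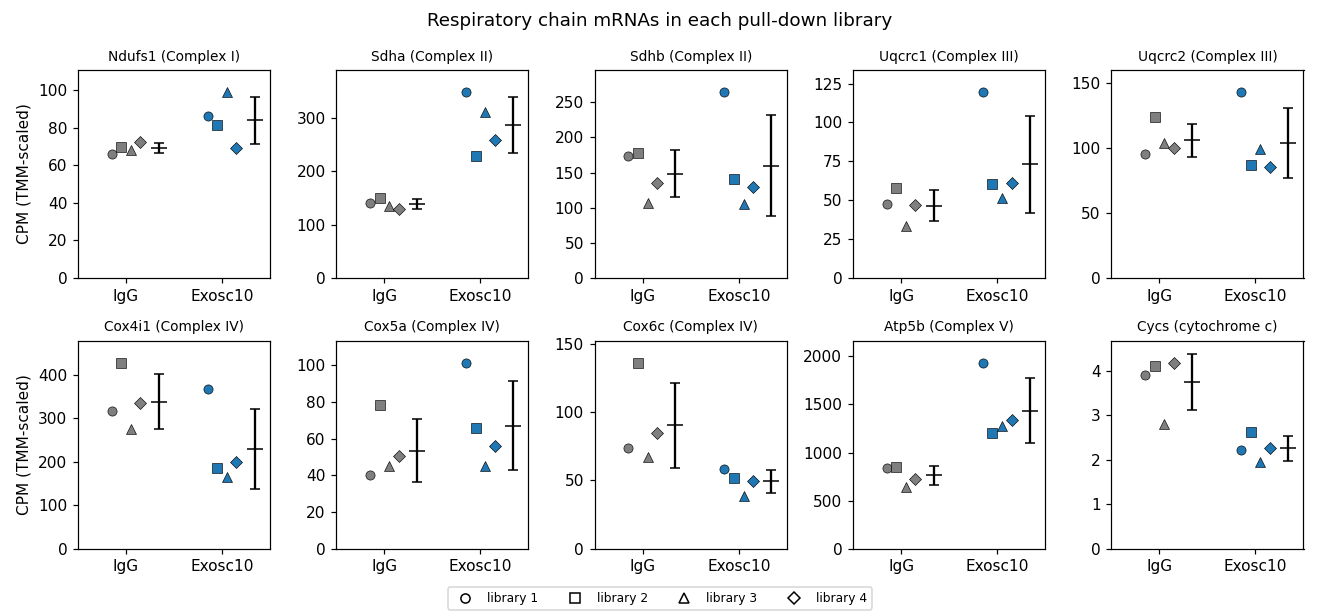
TMM-scaled CPM of each respiratory chain mRNA (vertical axis, from 0, with its own scale in each panel) in the 4 IgG libraries (grey) and the 4 Exosc10 libraries (blue). Marker shapes give the library number, and the bar beside each group is its mean with its SD. The groups are separate for Sdha, Atp5b, Cox6c and Cycs, and the Exosc10 library numbered 1 stands highest of its group in 8 panels.

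**Figure D2:**
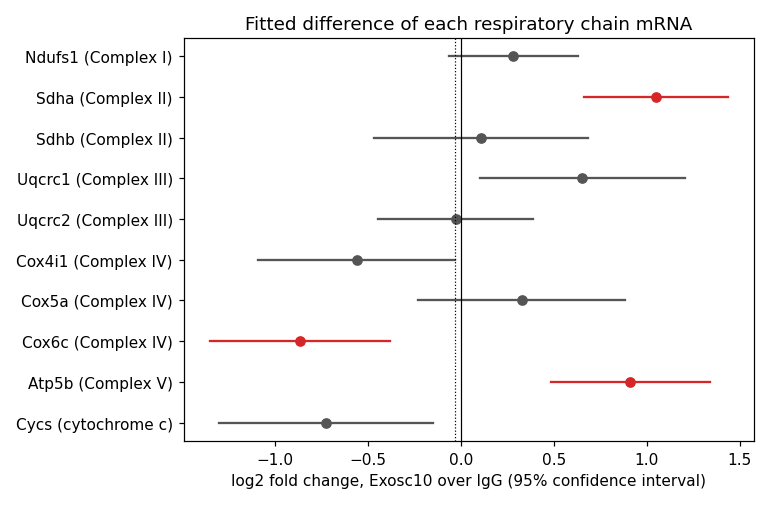
Log2 fold change, Exosc10 over IgG, of each mRNA (points) with its 95% confidence interval (lines) from the edgeR fit. Red marks an adjusted p under 0.05, the solid line is no difference, and the dotted line is the median of all tested genes, -0.03. Sdha and Atp5b lie to the right, and Cox6c lies to the left.

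Complex II, succinate dehydrogenase, is the enzyme of the citric acid cycle that feeds electrons directly into the chain. Sdha (ENSMUSG00000021577) is its flavoprotein, which oxidises succinate, and Sdhb (ENSMUSG00000009863) is the iron-sulfur subunit that passes the electrons on. All complex II subunits are nuclear-encoded. The Sdha gene lies on chromosome 13 from 74322255 to 74350240, and Sdhb lies on chromosome 4 from 140961271 to 140979198 (GRCm38, the assembly called mm10 in the processing notes). The RefSeq promoter windows of this pair and of Atp5b are shown because Sdha and Atp5b were both called higher and Sdhb was not. Each is the stretch of 120 bases before the annotated start, written 5′ to 3′ on the gene's own strand. Capitals mark TGCGCA, a core of the site bound by nuclear respiratory factor 1 (NRF-1), a known activator of many respiratory chain genes.
Sdha, chr13:74350241-74350360, minus strand: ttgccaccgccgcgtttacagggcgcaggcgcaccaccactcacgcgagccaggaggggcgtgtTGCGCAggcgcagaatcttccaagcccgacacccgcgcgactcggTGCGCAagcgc
Sdhb, chr4:140961151-140961270, plus strand: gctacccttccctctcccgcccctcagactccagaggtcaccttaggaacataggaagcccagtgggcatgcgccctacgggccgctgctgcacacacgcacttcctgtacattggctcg
Atp5b, chr10:128083187-128083306, plus strand: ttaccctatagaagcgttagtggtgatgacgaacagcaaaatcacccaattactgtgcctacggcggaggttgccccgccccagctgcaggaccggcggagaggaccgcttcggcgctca

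The Sdha stretch holds 2 matches that do not overlap, and the stretches of Sdhb and Atp5b hold 0. RefSeq promoters were found for 6 of the 10 genes: Sdha, Sdhb, Uqcrc1, Cox5a, Atp5b and Cycs. Over the 250 bases before the start and on both strands, the NRF-1 core occurred in 1 of the 6 (Sdha), against 6.43% of 32851 RefSeq promoters. The cyclic AMP response element TGACGTCA occurred in 1 of the 6 (Cycs), against 1.55%. The exact letters CCGGAAG, one form of the ETS site bound by GABP (nuclear respiratory factor 2), occurred in 0 of the 6, against 6.91%. Only these exact letters were searched for each of the 3 motifs, so other forms of the sites may be present. None of the 6 windows held more than 1 of the 3 motifs. These matches describe the letters of the windows alone, and RIP-seq counts do not measure promoter use.

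Sdha stood at 349, 229, 311 and 259 CPM in Exosc10 libraries 1 to 4 and at 141, 151, 134 and 129 CPM in IgG libraries 1 to 4. The lowest Exosc10 library lay well above the highest IgG library, and the IgG libraries lay close together. The means were 287 ± 53.4 and 139 ± 9.3 CPM (SD, n = 4 each). In the fit the log2 fold change was 1.05 ± 0.18 (SE), a 2.07-fold difference with a 95% confidence interval of 1.58 to 2.70 (edgeR adjusted p = 0.00336). Among all tested genes 2.63% had a larger log2 fold change. Leaving out any single library kept the call, at adjusted p-values of 0.00238 to 0.0188 in edgeR.

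Sdhb stood at 265, 141, 105 and 130 CPM in Exosc10 libraries 1 to 4 and at 173, 178, 107 and 136 CPM in IgG libraries 1 to 4. Exosc10 library 1 was the highest of all, and the other 3 Exosc10 libraries lay within or just below the IgG range. The fitted log2 difference was 0.11 ± 0.27 (SE, edgeR adjusted p = 0.824), with an interval of -0.47 to 0.68 that spans differences in either direction. It was -0.24 without Exosc10 library 1, and it was also below 0 with limma-voom and sample weights, without IgG library 3 and without both libraries numbered 1.

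Both mRNAs were then compared within each library, as a ratio of read counts, which no scaling between libraries can change. The Sdha to Sdhb ratio was 1.32, 1.63, 2.97 and 2.00 in Exosc10 libraries 1 to 4 and 0.813, 0.846, 1.25 and 0.952 in IgG libraries 1 to 4. Every Exosc10 library lay above every IgG library, though the lowest Exosc10 ratio was close to the highest IgG ratio. The mean ratios were 1.98 ± 0.72 and 0.966 ± 0.201 (SD, n = 4 each). The log2 difference of the ratios was 0.99 (exact two-sided permutation test over 70 assignments of the libraries, p = 0.0286, the smallest it can give; adjusted p = 0.0357 over 5 ratios). The groups stayed separate without any single library, which follows from their separation with all libraries. The exact permutation p was 0.0571 without Exosc10 library 3 or without any one of the IgG libraries. It moves in coarse steps when the groups are unequal. Without IgG library 4 the log2 difference was 0.99, as with all libraries. The 5 ratios are all pairs of these mRNAs within one complex, and they were added after the counts had been seen. They use the same counts as the fold changes and are no independent support for them. The complex IV ratios share mRNAs, so the ratios are not independent of each other either. How often ratios of other tested gene pairs separate was not counted, so separation is not read as particular to these complexes.

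Complex III, the cytochrome bc1 complex, passes electrons from ubiquinol to cytochrome c. Uqcrc1 (ENSMUSG00000025651) and Uqcrc2 (ENSMUSG00000030884) encode its large core proteins on the matrix side. Uqcrc1 lies on chromosome 9 from 108936648 to 108949641, and Uqcrc2 lies on chromosome 7 from 120635189 to 120659523, where RefSeq places the protein-coding gene Pdzd9 over part of it. The strand setting of the counting was not given in the sources used here, so reads of overlapping genes could be divided in a way that cannot be checked.

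Uqcrc1 stood at 119.6, 60.1, 51.1 and 61.0 CPM in Exosc10 libraries 1 to 4 and at 47.7, 57.6, 33.3 and 46.7 CPM in IgG libraries 1 to 4. Exosc10 library 1 lay far above the rest, and the groups overlapped only where Exosc10 library 3 fell below IgG library 2. On the log2 scale the fold change was 0.65 ± 0.26 (SE), with an interval of 0.10 to 1.21 and an edgeR adjusted p of 0.104. Without Exosc10 library 1 it was 0.32 (edgeR adjusted p = 0.266), so more than 1.5 times smaller. It passed when no filter was used (edgeR adjusted p = 0.0153) and with limma-voom and sample weights (adjusted p = 0.0396). With the library number added to the fit as a block it passed too (edgeR adjusted p = 0.0297), although the numbers were not shown to pair the libraries.

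Uqcrc2 stood at 142.9, 86.9, 99.3 and 85.3 CPM in Exosc10 libraries 1 to 4, and its IgG values lay between 95 and 123.8 CPM. The Exosc10 range enclosed the IgG range. Its log2 fold change was -0.03 ± 0.19 (SE, edgeR adjusted p = 0.939), with an interval of -0.45 to 0.39.

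The ratio of Uqcrc1 to Uqcrc2 counts was 0.837, 0.692, 0.514 and 0.715 in Exosc10 libraries 1 to 4 and 0.503, 0.465, 0.321 and 0.466 in IgG libraries 1 to 4. The groups did not overlap, but Exosc10 library 3 lay barely above IgG library 1. The log2 difference was 0.65 (exact two-sided permutation p = 0.0286, or 0.0357 adjusted over 5 ratios). The groups stayed separate without any single library, which follows from their separation with all libraries. The exact permutation p, which moves in coarse steps when the groups are unequal, was 0.0571 without any one of the IgG libraries. In these libraries the ratio of the complex III core protein mRNAs thus separated the pull-downs narrowly, as did that of the complex II mRNAs. Both ratios were chosen after the counts had been seen. Neither Uqcrc1 nor Uqcrc2 was called in the fit of all 8 libraries without covariates.

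Complex IV, cytochrome c oxidase, hands electrons to oxygen. Its catalytic core is encoded in mitochondrial DNA, and Cox4i1 (ENSMUSG00000031818), Cox5a (ENSMUSG00000000088) and Cox6c (ENSMUSG00000014313) are nuclear-encoded subunits around that core. Cox4i1 takes part in assembly and in the response of the enzyme to ATP. Cox4i1 lies on chromosome 8 from 120668225 to 120674209, Cox5a on chromosome 9 from 57517328 to 57532427, and Cox6c on chromosome 15 from 35931976 to 35938246, with 0 other RefSeq genes over any of them.

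Cox6c stood at 58.5, 51.5, 38.5 and 49.3 CPM in Exosc10 libraries 1 to 4 and at 73.9, 135.9, 67.0 and 84.3 CPM in IgG libraries 1 to 4. Every Exosc10 library lay below every IgG library, and IgG library 2 lay far above the other 3. The means were 49.4 ± 8.3 and 90.3 ± 31.2 CPM (SD, n = 4 each). This was a log2 fold change of -0.87 ± 0.23 (SE), with an interval of -1.35 to -0.38 and an edgeR adjusted p of 0.0233. A larger log2 fold change was found in 93.7% of tested genes. The call was lost when Exosc10 library 2, 3 or 4 or IgG library 2 or 4 was left out, at edgeR adjusted p-values of 0.0535 to 0.0713. The direction was kept in all 18 alternatives, and the log2 fold change was -0.60 without IgG library 2.

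Cox4i1 stood at 367, 187, 165 and 200 CPM in Exosc10 libraries 1 to 4 and at 317, 428, 276 and 335 CPM in IgG libraries 1 to 4. The Exosc10 libraries numbered 2, 3 and 4 lay below every IgG library, and Exosc10 library 1 lay above 3 of them. In the fit the log2 fold change was -0.56 ± 0.25 (SE), with an interval of -1.09 to -0.03, and it did not pass (edgeR adjusted p = 0.142). Without Exosc10 library 1 it was -0.87 and passed (edgeR adjusted p = 0.00782), and with limma-voom and sample weights, which change the test and the weight of each library together, it was -0.78 and passed (adjusted p = 0.000763). Without both libraries numbered 1 it was -0.91 and passed (edgeR adjusted p = 0.000711). With the library number as a block it was -0.62 and passed as well (edgeR adjusted p = 0.0320).

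Cox5a stood at 101, 65.8, 45.3 and 56.3 CPM in Exosc10 libraries 1 to 4 and at 40.0, 78.6, 44.9 and 50.5 CPM in IgG libraries 1 to 4. The groups overlapped over most of their range. The fitted log2 difference was 0.33 ± 0.26 (SE, edgeR adjusted p = 0.421), with an interval of -0.23 to 0.88, and without both libraries numbered 1 it was -0.06.

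The complex IV mRNAs were compared with each other in the same way. Cox4i1 had 3.62, 2.84, 3.65 and 3.55 reads per Cox5a read in Exosc10 libraries 1 to 4 and 7.93, 5.45, 6.14 and 6.63 in IgG libraries 1 to 4. The mean ratios were 3.42 ± 0.38 and 6.53 ± 1.05 (SD, n = 4 each), a log2 difference of -0.93 (exact two-sided permutation p = 0.0286, or 0.0357 adjusted over 5 ratios). The groups were far apart, with no library between 3.65 and 5.45.

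Cox5a had 1.73, 1.28, 1.18 and 1.14 reads per Cox6c read in Exosc10 libraries 1 to 4 and 0.542, 0.578, 0.670 and 0.600 in IgG libraries 1 to 4. Every Exosc10 library had more Cox5a than Cox6c reads, and every IgG library had fewer. The log2 difference was 1.14 (exact two-sided permutation p = 0.0286, or 0.0357 adjusted over 5 ratios). Both this ratio and that of Cox4i1 to Cox5a stayed separate without any single library. This follows from the separation with all libraries and is no added test. The exact two-sided permutation p was 0.0286 throughout, the smallest it can give there.

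The ratio of Cox4i1 to Cox6c was 6.28, 3.63, 4.29 and 4.06 in Exosc10 libraries 1 to 4 and 4.30, 3.15, 4.11 and 3.97 in IgG libraries 1 to 4. The ranges overlapped, and the log2 difference of 0.21 did not pass (exact two-sided permutation p = 0.429, also after adjustment over 5 ratios). This does not show that the 2 mRNAs were recovered alike.

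**Figure D3:**
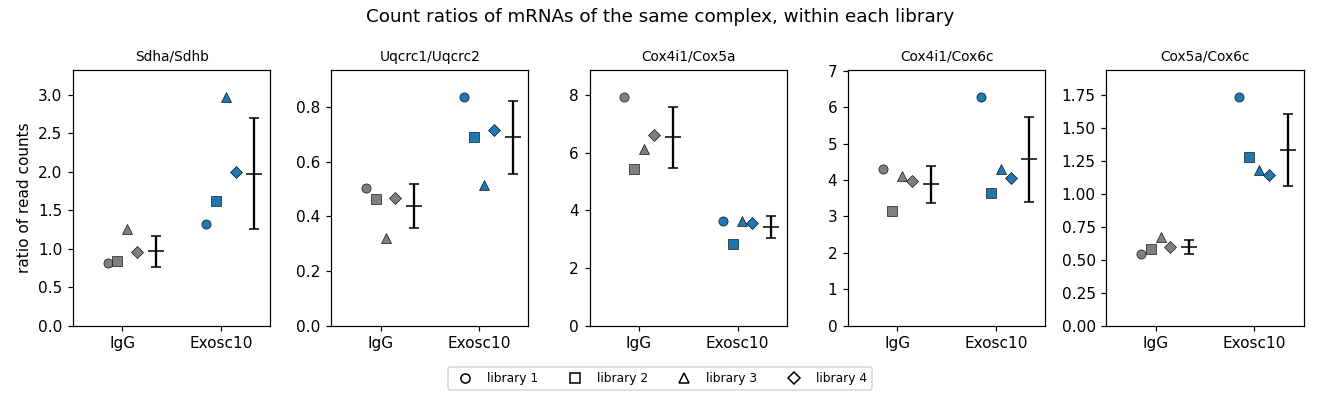
Ratio of the read counts of 2 mRNAs of the same complex within each library (vertical axes, from 0), in IgG (grey) and Exosc10 (blue) libraries. Marker shapes give the library number, and bars give the mean with its SD. The groups are separate for 4 of the 5 ratios and overlap for Cox4i1 to Cox6c. How often ratios of other gene pairs separate was not counted.

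Atp5b (ENSMUSG00000025393) encodes the catalytic beta subunit of the ATP synthase. It lies on chromosome 10 from 128083307 to 128090388, and RefSeq places the small nucleolar RNA Snord59a and the microRNA Mir677 within its bounds. Atp5b stood at 1932, 1205, 1275 and 1333 CPM in Exosc10 libraries 1 to 4 and at 843, 847, 642 and 721 CPM in IgG libraries 1 to 4. Every Exosc10 library lay above every IgG library, and Exosc10 library 1 lay above the other 3. The means were 1436 and 763 CPM (n = 4 each), with an SD of 335 in the Exosc10 group and an IgG range of 642 to 847. On the log2 scale the fold change was 0.91 ± 0.20 (SE), a 1.88-fold difference with an interval of 1.40 to 2.53 (edgeR adjusted p = 0.0107). Among all tested genes 4.24% had a larger log2 fold change. The call was kept without any single library, with edgeR adjusted p-values of 0.00591 to 0.0431.

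Shares of reads are not corrected for transcript length. The 10 mRNAs together took 0.248% ± 0.062 of all reads with Exosc10 and 0.177% ± 0.029 with IgG (SD, n = 4 each). With Atp5b left out, these shares were 0.105% ± 0.029 and 0.10% ± 0.018 (SD, n = 4 each), and their ranges overlapped. Atp5b made up 56.4% to 59.4% of the reads of the set in the Exosc10 libraries and 40.8% to 46.8% in the IgG libraries. The larger share of the set in the Exosc10 pull-down was thus mostly that of Atp5b. The means of the whole set differed by 0.071 percentage points, and by 0.040 without Exosc10 library 1.

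Ndufs1 (ENSMUSG00000025968) encodes the largest subunit of complex I, NADH dehydrogenase, and carries iron-sulfur clusters in the arm that takes electrons from NADH. It lies on chromosome 1 from 63143592 to 63176822, overlapped by the long noncoding RNA gene Ino80dos. Ndufs1 stood at 86.1, 81.1, 98.9 and 68.9 CPM in Exosc10 libraries 1 to 4 and at 65.8, 69.8, 68.1 and 72.2 CPM in IgG libraries 1 to 4. The Exosc10 libraries numbered 1 to 3 lay above all IgG libraries, and library 4 lay within their range. Its log2 fold change was 0.28 ± 0.16 (SE), with an interval of -0.07 to 0.63, and it did not pass (edgeR adjusted p = 0.261).

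Cycs (ENSMUSG00000063694) encodes cytochrome c, the mobile carrier between complexes III and IV, which also activates the apoptosome when it leaves mitochondria. It lies on chromosome 6 from 50562563 to 50566569. Cycs was counted with 48, 79, 60 and 77 reads in Exosc10 libraries 1 to 4 and with 87, 106, 68 and 127 reads in IgG libraries 1 to 4. After scaling it stood at 1.94 to 2.62 CPM in the Exosc10 and at 2.81 to 4.17 CPM in the IgG libraries, which did not overlap. In the fit the log2 fold change was -0.73 ± 0.27 (SE), with an interval of -1.31 to -0.15, and it did not pass (edgeR adjusted p = 0.0846). It passed in DESeq2, at an adjusted p of 0.0381, and with limma-voom and sample weights, at 0.0240. Counting error alone gives a coefficient of variation of 14.4% at 48 reads and 8.87% at 127 reads, against 12.3% and 17.0% between the Exosc10 and the IgG libraries. RefSeq lists 3 pseudogenes named after Cycs (Cycs-ps1, Cycs-ps2 and Cycs-ps3) and 0 named in this way after any of the other 9 genes. Pseudogenes under other names were not searched for. How reads that map to several genes were treated was not given in the sources used here, so the level of Cycs is uncertain. The levels of the other 9 could be affected too, which was not tested.

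The mRNAs also varied together between libraries of one group. In Exosc10 library 1, 9 of the 10 lay above their group mean on the log2 scale, with Sdhb 0.82 above it and Cycs 0.01 below it. In IgG library 2 all 10 lay above their group mean, and in IgG library 3 all 10 lay below it. Among all tested genes, 50.5%, 52.1% and 49.4% lay above their group mean in those 3 libraries. The spread of each mRNA within its group, as a coefficient of variation, was 12.3% to 44.7% with Exosc10 and 3.9% to 34.6% with IgG, and it was larger in the Exosc10 group for 8 of the 10. The share of all tested genes with a larger spread in the Exosc10 group was not counted. The larger spread is therefore not read as particular to the set. Exosc10 library 1 was the shallowest of its group, at 21731971 counts. With all libraries thinned to 20967743 counts in a single random draw, the calls were again 2 higher and 1 lower. Among the 16209 genes tested there, 1297 were higher and 982 lower. Whether depth accounts for the deviations in Exosc10 library 1 was not tested. Sdha, Atp5b and Cox6c kept their calls without Exosc10 library 1.

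**Figure D4:**
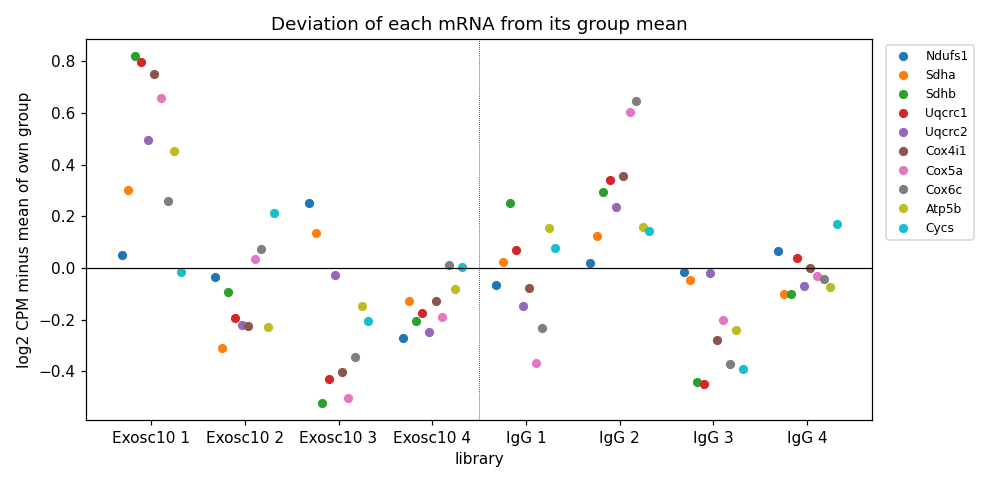
Log2 CPM of each mRNA minus the mean of its own group (vertical axis) in each of the 8 libraries (horizontal axis). Exosc10 library 1 lies above 0 for 9 of the 10 mRNAs, IgG library 2 for all 10, and IgG library 3 for none.

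The tested genes whose log2 CPM over the 8 libraries was most like the mean of the 10 mRNAs were ENSMUSG00000029003 and ENSMUSG00000045948. Their likeness is a description, measured by Pearson correlations of 0.985 and 0.982 across 8 libraries, or 0.965 and 0.966 without Exosc10 library 1. Without that library another of the 5 genes most alike over all 8 had a higher correlation, 0.972, so the order among them rests on it. These libraries share their antibody groups, and neither gene, which could not be given a symbol, was called between groups.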

How the data were processed

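The authors deposited a read count per Ensembl gene ID for each of the 8 libraries, with no normalization. The submitters' processing notes name bcl2fastq (2.17.1.14), then list STAR at version 2.5.2a and also featureCounts at version 1.5.0-p1, with build mm10; they give no order. The annotation release, the strand setting and how multi-mapping reads were handled are not given in the sources used here. No molecular identifiers are named, so counting errors cover reads and not molecules.

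Counts were tested in edgeR 4.0.16 (R 4.3.3): filterByExpr (min.count 10, min.total.count 15), TMM scaling, and a quasi-likelihood F-test without covariates over 16716 genes, adjusted by Benjamini-Hochberg. The SE is the log2 fold change divided by the root of F. Log2 CPM used a prior count of 2. Alternatives used DESeq2 1.42.0, limma-voom with sample weights (limma 3.58.1), other scalings and filters, thinning, a replicate block and left-out libraries. Groups came from the sample titles. Named were the 10 members and, for likeness, IDs with a mean of at least 5 CPM. The members, lists and ratios were chosen with earlier results of these data known. Lists by symbol could not be matched, and symbols of the 10 members came with their IDs. RefSeq sequences and coordinates are of GRCm38.p6.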

Additional observations from a re-analysis of the deposited data

Results flagged for a closer look

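Of 20 groups of 4 libraries, 10 mRNAs in each pull-down, 1 held a library far from the others by Dixon's test at the 95% level. This was Uqcrc1 in the Exosc10 libraries, where library 1 stood at 119.6 CPM. Chance flags about 1 in 20 such groups on average, but these groups share libraries and are not independent. Exosc10 library 1 was also the extreme value for Cox4i1, Atp5b, Sdhb, Uqcrc2, Cox5a and Sdha, at 367, 1932, 265, 142.9, 101 and 349 CPM. None of these passed, and Cox4i1 and Atp5b fell just short. The flag is therefore not read as particular to Uqcrc1.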

How the results depend on the processing

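In 18 alternatives Sdha and Atp5b were called higher throughout. The number of higher mRNAs was 2 or 3. That of lower mRNAs, 1 with all libraries, was 2 with DESeq2 (Cycs added), 3 with limma-voom and sample weights (Cox4i1 and Cycs added) and 2 without both libraries numbered 1, and 0 to 2 when single libraries were left out. Calls over all genes moved too, from 1324 higher and 973 lower to 1869 and 1522, 3363 and 3011, and 2908 and 2555 in those fits, and to 588 to 2218 higher and 261 to 1828 lower without single libraries, so these counts are not read as particular to the set. Same-numbered libraries deviated together with correlations of 0.34, 0.095, 0.34 and 0.22, which did not settle a pairing. With the replicate block 3 mRNAs were higher and 2 lower, Uqcrc1 (0.59) and Cox4i1 (-0.62) being added, while 2489 and 2006 of all genes were called and the biological coefficient of variation was 0.199 in place of 0.265. Directions turned only for mRNAs that were not called: Uqcrc2 to 0.0034 without a filter and -0.22 to 0.059 when single libraries were left out; Sdhb to -0.016 with limma-voom and sample weights, -0.17 without both libraries numbered 1 and -0.24 to 0.27 when single libraries were left out; Cox5a to -0.058 without both libraries numbered 1. The cause was not tested. Uqcrc1 also passed without a filter and with limma-voom and sample weights. The median of the set was -0.11 without both libraries numbered 1 and -0.08 to 0.28 when single libraries were left out. Without single libraries the Sdha to Sdhb ratio differed by 0.77 to 1.16 and Uqcrc1 to Uqcrc2 by 0.51 to 0.78 (log2). Groups stayed separate there, which follows from their separation with all libraries and is no added test. The exact two-sided permutation p-values were 0.0286 to 0.0571. Without both libraries numbered 1 no exact p can go below 0.1. Upper-quartile scaling turned the balance of calls over all genes to 1025 higher and 1369 lower, and kept all 3 calls of the set. The filter at a mean of 5 CPM left Cycs out, so no median was taken. The pathway lists could not be run. At 48 to 127 reads, depth limits Cycs most.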

Other observations

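Each of the 5 ratios lay on one side in all 4 pairs of same-numbered libraries, although the numbers were not shown to pair them. For the 4 ratios whose groups did not overlap this follows from the separation itself. The Sdha to Sdhb ratio was 1.62, 1.92, 2.37 and 2.10 times as high in the Exosc10 library as in the IgG library of numbers 1 to 4. For Uqcrc1 to Uqcrc2 these values were 1.67, 1.49, 1.60 and 1.53. For Cox4i1 to Cox6c, whose groups overlapped, they were 1.46, 1.15, 1.04 and 1.02. The 4 numbers ranked in the same order in both groups for these 3 ratios, and in different orders for Cox4i1 to Cox5a and Cox5a to Cox6c. No test was made of these orders.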
